A study of Mus musculus with 9 samples.

Results

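Transcripts of 6 genes of the Nodal and activin pathway were followed in F9 cells, a mouse embryonal carcinoma line, after 24 h in medium with the ethanol vehicle, with retinoic acid (RA) at 0.5 µM or with trichostatin A (TSA) at 0.07 µM. RA is a ligand of nuclear receptors under which F9 cells take up an endodermal fate, and TSA inhibits histone deacetylases. Total RNA of 3 samples per group was hybridised to Affymetrix oligonucleotide arrays, 9 in all. All samples are of this 1 line. Whether replicates came from different cultures is not given in the labels, and the p-values measure the spread among these arrays only, part of which could be technical. The genes are Nodal, Gdf3, Inhbb, Tdgf1, Lefty1 and Fst. Every probe set whose only platform gene symbol was one of these names was taken, which gave 8 of 12422 probe sets, for 6 of 8251 genes. Lefty1 and Gdf3 each had 2 probe sets and the other 4 genes had 1 each. No filter was applied, and all 8 were tested.

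Nodal and the activins are secreted ligands of the TGF-beta family. They bind type II and type I activin receptors, which phosphorylate Smad2 and Smad3, and these enter the nucleus with Smad4. Inhbb encodes the beta B subunit, from which activin B is built. Nodal, and Gdf3 in the same manner, need the membrane-bound co-receptor Cripto, encoded by Tdgf1. Lefty1 is a secreted antagonist that binds Nodal and its co-receptor, and is itself a known target of Nodal signalling in the embryo. Follistatin, encoded by Fst, binds activins and blocks their access to receptors. In the early mouse embryo the pathway acts in the pluripotent epiblast and in the formation of endoderm, and Tdgf1, Gdf3 and Lefty1 are well known as transcripts of undifferentiated stem cells.

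Each deposited value is the ratio of a probe set's signal on an array to its mean over the 3 vehicle arrays, so the vehicle mean is 1 for every probe set, and levels of different genes cannot be set against each other. Differences were tested as log2(ratio + 0.05) with limma, in 1 fit over all 9 arrays and all probe sets, and a probe set was called at a Benjamini-Hochberg adjusted p under 0.05. Log2 differences are on that scale, which understates the change of low values. Values given as times vehicle are ratios of group means without the added 0.05. The median over all probe sets was below vehicle by a log2 difference of -0.12 in RA and -0.17 in TSA, and stood at 0.035 and 0.029 after each array was centred on its median. The median SD within a group was 0.41 log2 units in vehicle, 0.31 in RA and 0.26 in TSA. The signal of 18S rRNA controls was highest on vehicle replicate 3 (2.40) and RA replicate 3 (0.961) and was 0.538 or less on the other 7 arrays. It also moved with the groups: all TSA arrays (0.0336 to 0.0531) lay below all vehicle arrays (0.0730 to 2.40), and the RA arrays (0.0515 to 0.961) overlapped vehicle. The median of the 18 hybridisation spike-in controls was 0.822 to 1.23 in vehicle, 0.413 to 1.03 in RA and 0.563 to 0.726 in TSA, again with all TSA arrays below vehicle. The part of these control signals in the members' falls in TSA and RA was not tested beyond the centring and the left-out arrays given below.

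The co-receptor Tdgf1, the activin subunit Inhbb and the activin antagonist Fst fell under both compounds, to group means between 0.0606 and 0.308 times vehicle. Of the 9 fits that each left out 1 array, 1 kept the RA call of Inhbb and 1 the TSA call of Tdgf1. All 9 kept both calls of Fst and the TSA call of Inhbb, and 7 kept the RA call of Tdgf1. By 1 of its 2 probe sets, the Nodal antagonist Lefty1 rose to 4.19 times vehicle in RA and fell to 0.227 times vehicle in TSA. Gdf3 fell in TSA by 1 of its 2 probe sets. Nodal itself was not called in any comparison. In RA against vehicle, 4 of the 8 probe sets were called, 1 higher and 3 lower, where 1.36% of all probe sets were called (0.934% higher and 0.427% lower). In TSA against vehicle, 5 were called, all lower, against a background of 3.48% in either direction and 1.27% lower. In RA against TSA, 3 were called, all higher in RA, against 3.91% in either direction and 1.7% higher. Without vehicle replicate 2, without RA replicate 1, or without the pair of arrays highest in 18S, 2 members were called in RA, and without TSA replicate 2, 1 was called between RA and TSA. The median difference of the 8 probe sets was -0.25 in RA, -1.61 in TSA and 0.66 in RA against TSA. After centring, 148 probe sets were higher and 37 lower in RA, in place of 116 and 53, and 379 and 82 in TSA, in place of 274 and 158. All 3 comparisons share arrays, the first 2 the vehicle arrays. The members were chosen with earlier results known, so these shares are a description. In bulk RNA, fewer cells that express a gene and less RNA per cell cannot be told apart.

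**Figure D1:**
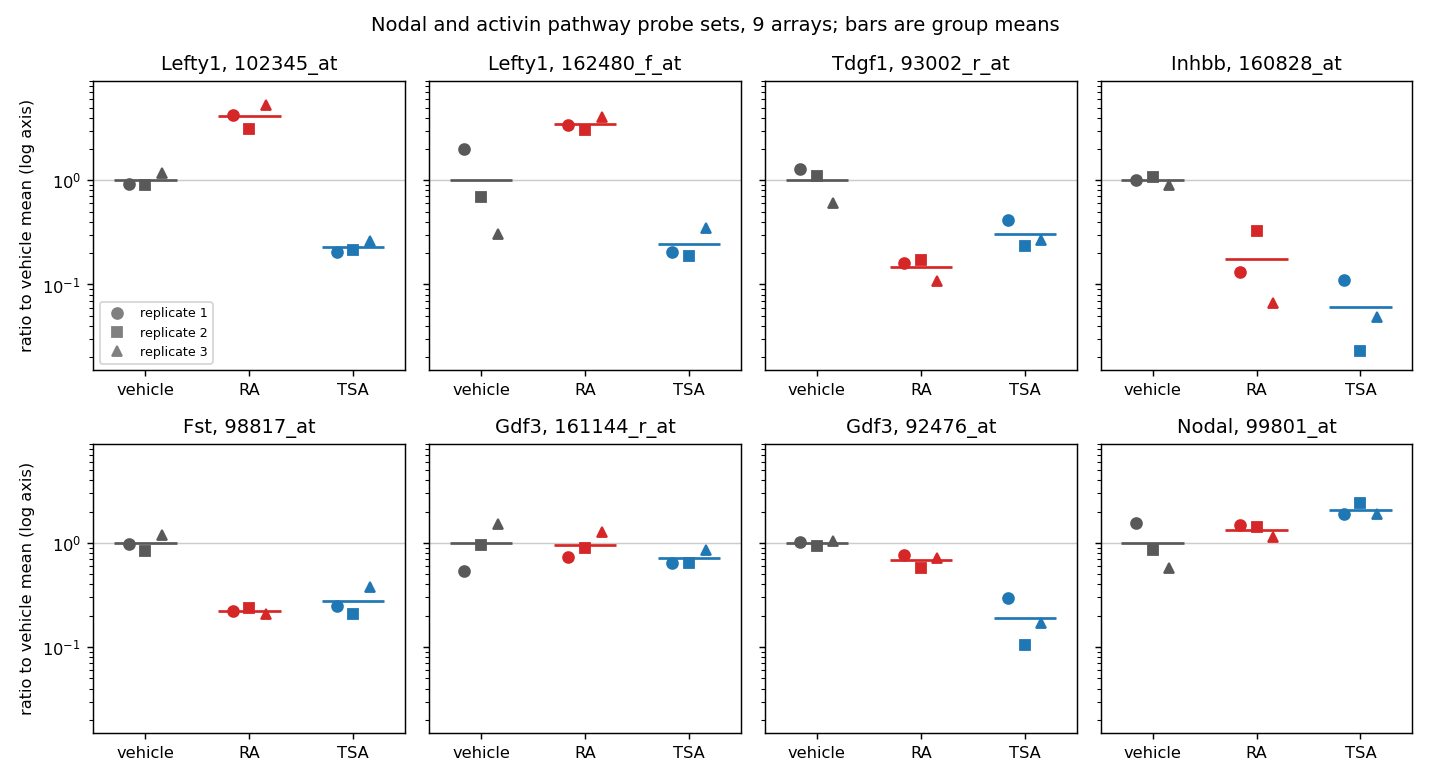
Ratio to the vehicle mean (log axis) of the 8 probe sets on each of the 9 arrays, with 1 symbol per replicate number and a bar at each group mean. For Lefty1 102345_at the RA arrays lie between 3.08 and 5.28 and the TSA arrays between 0.207 and 0.262, on opposite sides of the vehicle arrays, while the RA and TSA arrays of Tdgf1, Inhbb and Fst all lie below their vehicle arrays.

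Inhbb, measured by probe set 160828_at, gave 1.01, 1.08 and 0.908 on the vehicle arrays, 0.133, 0.325 and 0.0665 on the RA arrays and 0.110, 0.0228 and 0.0490 on the TSA arrays. All 6 treated arrays lay below the lowest vehicle array, and the RA and TSA arrays overlapped. The group means were 0.175 ± 0.134 in RA and 0.0606 ± 0.0447 in TSA (SD, n = 3), against 1 ± 0.0884 in vehicle. Inhbb fell by 2.39 on the log2 scale in RA (SE 0.44, limma adjusted p = 0.0392) and by 3.32 in TSA (SE 0.44, limma adjusted p = 0.00759). In TSA, 99.98% of all probe sets had a higher difference than Inhbb. The difference between RA and TSA was 0.93 with a 95% interval from -0.06 to 1.93 (limma adjusted p = 0.325). The RA call was near the threshold: of the 9 fits that each left out 1 array, only that without RA replicate 2 kept it (limma adjusted p = 0.0277), and the others gave 0.0514 to 0.140. It was also lost with a pseudocount of 0.01 (0.0777), centring (0.0529), quantile normalisation (0.0852), the replicate block (0.0736), the 6 arrays alone (0.0931) and without the pair of arrays highest in 18S (0.123), and a variance trend ended it in RA (0.624) and in TSA (0.328).

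Gdf3, a ligand of the same family, was read by 2 probe sets that differed. Probe set 92476_at gave 1.02, 0.942 and 1.04 in vehicle, 0.765, 0.574 and 0.713 in RA and 0.293, 0.105 and 0.169 in TSA. The vehicle, RA and TSA arrays formed 3 separate ranges in that descending order. In TSA it fell by 2.21 on the log2 scale (SE 0.29, limma adjusted p = 0.00750), and this call held in all 9 fits without 1 array. In RA the difference was -0.52, with an interval from -1.18 to 0.13, and was not called (limma adjusted p = 0.502), although the groups did not overlap. RA exceeded TSA by 1.69 (SE 0.29, limma adjusted p = 0.0174). That call was lost without RA replicate 1 (0.0677), RA replicate 3 (0.0562), TSA replicate 2 (0.0550) or TSA replicate 3 (0.0642), and without the pair of arrays highest in 18S (0.0643). The other probe set, 161144_r_at, gave 0.534, 0.956 and 1.51 in vehicle, 0.729, 0.897 and 1.27 in RA and 0.645, 0.644 and 0.859 in TSA. Its groups overlapped in every comparison, with differences of 0.03 in RA (its sign turned without vehicle replicate 1 or RA replicate 3), -0.35 in TSA and 0.38 in RA against TSA (limma adjusted p = 0.987, 0.644 and 0.678). Averaged over both probe sets, Gdf3 fell by 1.28 in TSA (limma adjusted p = 0.0253) and did not pass between RA and TSA (1.04, limma adjusted p = 0.0516).

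Nodal, by probe set 99801_at, gave 1.57, 0.853 and 0.574 in vehicle, 1.49, 1.41 and 1.13 in RA and 1.92, 2.42 and 1.88 in TSA. The TSA arrays all lay above the vehicle and RA arrays, and RA and vehicle overlapped. The TSA mean was 2.07 ± 0.3002 and the RA mean 1.35 ± 0.190, against a vehicle SD of 0.515 (n = 3). The difference was 1.12 in TSA (interval 0.36 to 1.88, limma adjusted p = 0.113), 0.52 in RA (interval -0.25 to 1.28, limma adjusted p = 0.581) and -0.60 in RA against TSA (interval -1.37 to 0.16, limma adjusted p = 0.422). Without vehicle replicate 1, the vehicle array with the highest Nodal value, the TSA difference was 1.49 and passed (limma adjusted p = 0.0315), and it also passed with array weights (0.0158). Of all probe sets, 9.26% had TSA arrays wholly above the vehicle arrays.

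Tdgf1, the co-receptor, was read by probe set 93002_r_at. It gave 1.28, 1.11 and 0.612 in vehicle, 0.162, 0.173 and 0.107 in RA and 0.420, 0.235 and 0.268 in TSA. The 3 groups did not overlap, with RA lowest. In RA the mean was 0.147 ± 0.0354 and Tdgf1 fell by 2.37 on the log2 scale (SE 0.32, limma adjusted p = 0.0118). The call was lost without vehicle replicate 2 (0.0538) or RA replicate 1 (0.0549), with quantile normalisation (0.0513) and with a variance trend (0.161). In TSA the mean was 0.308 ± 0.0988 and Tdgf1 fell by 1.53 (SE 0.32, limma adjusted p = 0.0394). Of the fits without 1 array, only that without vehicle replicate 3 kept the TSA call (0.0220), and the other 8 gave 0.0537 to 0.165. Centring (0.0611), quantile normalisation (0.209), the 6 arrays alone (0.0984) and a variance trend (0.244) also ended it. The difference between RA and TSA was -0.84, with an interval from -1.57 to -0.11, and was not called (limma adjusted p = 0.225).

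The sequence before the start of Inhbb and Tdgf1, each called lower in RA and in TSA, is shown beside that of Nodal, which was not called. Each is the 250 bases upstream of the annotated start in RefSeq's GRCm38.p6 table, read 5′ to 3′ on the gene's strand. Of the 6 genes, these 3 had an entry there, and Lefty1, Fst and Gdf3 did not. The windows lie at chr1:119422249-119422498 on the minus strand for Inhbb, at chr9:110946159-110946408 on the minus strand for Tdgf1 and at chr10:61417722-61417971 on the plus strand for Nodal. Capitals mark matches, on either strand, to any of 7 short motifs: TATAAA (the TATA box), CCAAT (the CCAAT box), GGGCGG (the GC box), GGGNGTGG (a form bound by Klf factors), AGGTCA (the half-site of retinoic acid receptors), AATNNACA (a loose form of the Foxh1 site) and CAGAC (a Smad-binding element).
Inhbb: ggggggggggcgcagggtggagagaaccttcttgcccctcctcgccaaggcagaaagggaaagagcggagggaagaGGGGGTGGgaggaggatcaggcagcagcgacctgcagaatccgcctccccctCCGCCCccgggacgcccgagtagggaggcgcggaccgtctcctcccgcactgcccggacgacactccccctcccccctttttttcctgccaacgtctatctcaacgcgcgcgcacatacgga
Tdgf1: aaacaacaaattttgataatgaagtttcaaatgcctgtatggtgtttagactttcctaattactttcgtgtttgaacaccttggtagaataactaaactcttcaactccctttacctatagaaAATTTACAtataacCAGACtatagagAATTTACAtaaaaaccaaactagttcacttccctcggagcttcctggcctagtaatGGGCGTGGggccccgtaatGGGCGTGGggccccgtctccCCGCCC
Nodal: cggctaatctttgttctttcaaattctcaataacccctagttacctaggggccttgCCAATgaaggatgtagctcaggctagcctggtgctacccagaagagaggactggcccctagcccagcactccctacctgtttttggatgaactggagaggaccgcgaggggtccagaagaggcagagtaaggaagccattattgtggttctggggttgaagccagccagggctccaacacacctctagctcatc
The Inhbb window was 68% G and C, above 87.8% of the 32841 windows of the same length, and the Tdgf1 window was 42%, above 15.9% of them. Tdgf1 had 2 matches to GGGNGTGG, at -45 and -26 from the start, inside a 21-base stretch that occurs 2 times, gtaatgggcgtggggccccgt. The copies of this stretch start at -50 and -31, so the end of the first overlaps the start of the second. Tdgf1 also had 2 matches to AATNNACA, both with the letters AATTTACA, 1 to CAGAC and 1 to GGGCGG. Inhbb had 1 match each to GGGCGG and GGGNGTGG, and Nodal had 1 match to CCAAT. No match overlapped another. AGGTCA and TATAAA did not match in these 3 windows. The share of all windows with a match was 15.9% for GGGNGTGG, 32.7% for GGGCGG, 10.9% for AATNNACA, 42.2% for CAGAC, 33.9% for CCAAT, 14% for AGGTCA and 12.4% for TATAAA.

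**Figure D2:**
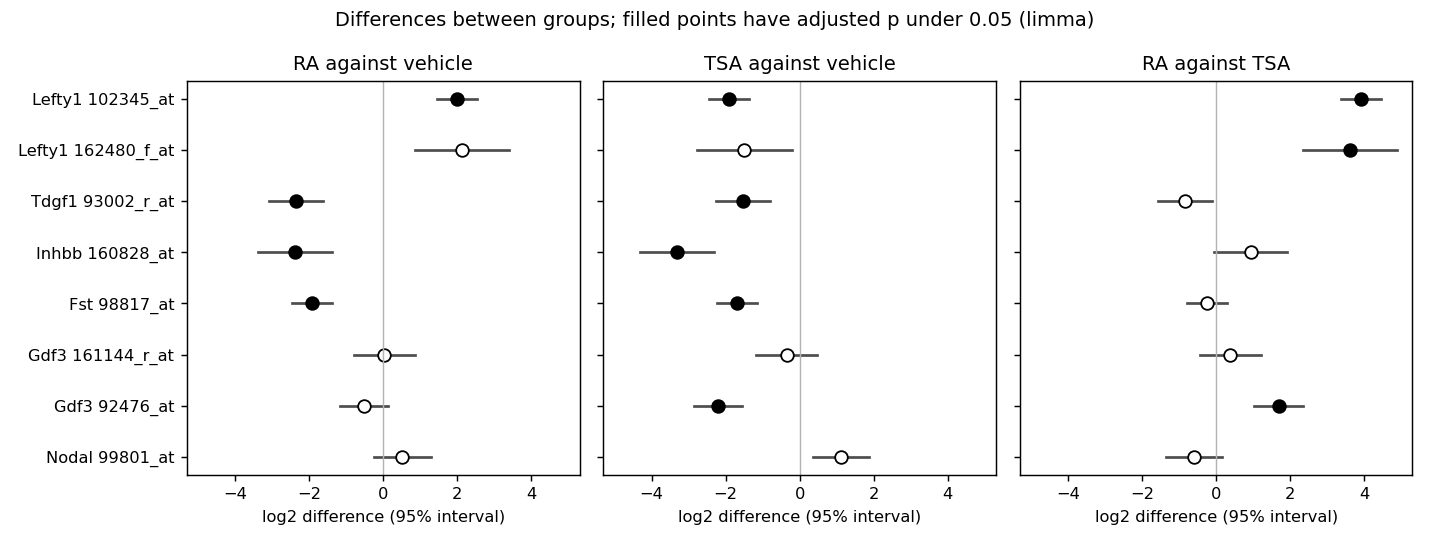
Log2 differences between groups with their 95% intervals for the 8 probe sets in the 3 comparisons, where filled points have a limma adjusted p under 0.05. Lefty1 102345_at is filled on the right in RA (1.99) and on the left in TSA (-1.92), and Inhbb, Tdgf1 and Fst are filled on the left in both.

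Lefty1, the Nodal antagonist, also carries the synonym Stra3, for a transcript stimulated by retinoic acid. Its probe set 102345_at gave 0.930, 0.902 and 1.17 in vehicle, 4.21, 3.08 and 5.28 in RA and 0.207, 0.213 and 0.262 in TSA. The RA arrays all lay above the vehicle arrays and the TSA arrays all below them. Lefty1 rose in RA to 4.19 ± 1.10 times the vehicle mean (SD, n = 3). The tested log2 difference was 1.99 (SE 0.24, interval 1.45 to 2.53, limma adjusted p = 0.00717). In TSA Lefty1 fell by 1.92 (SE 0.24, interval -2.46 to -1.38, limma adjusted p = 0.00643). The direct difference of RA over TSA was 3.91 (SE 0.24, limma adjusted p = 0.000217), the comparison's rank 3 by p among all probe sets. All 3 calls held in the 9 fits without 1 array and in the 10 other alternatives, with adjusted p up to 0.0492 in RA (the 6 arrays alone), 0.0363 in TSA (without TSA replicate 2) and 0.00293 between the compounds (without the pair of arrays highest in 18S).

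The other Lefty1 probe set, 162480_f_at, gave 2.01, 0.690 and 0.303 in vehicle, 3.41, 3.02 and 4.10 in RA and 0.204, 0.188 and 0.348 in TSA. Its RA values lay above all vehicle values, but 1 TSA array lay above vehicle replicate 3. The differences were 2.12 in RA (SE 0.56, limma adjusted p = 0.133) and -1.49 in TSA (SE 0.56, limma adjusted p = 0.190), so neither was called. The SE was larger than that of 102345_at (0.24), and the vehicle SD was 0.893 against 0.146. Without vehicle replicate 1 the RA difference was 2.79 and passed (limma adjusted p = 0.0248), and without vehicle replicate 3 the TSA difference was -2.10 and passed (0.0483). The RA arrays exceeded the TSA arrays by 3.61 (SE 0.56, limma adjusted p = 0.0123), a call lost without TSA replicate 2 (0.0559) and with quantile normalisation (0.157). The suffix of this probe set marks a design shared with similar sequences, so related transcripts may contribute to it. Averaged over both probe sets, Lefty1 differed by 2.05 in RA and -1.71 in TSA (limma adjusted p = 0.0142 and 0.0202). The average was higher in RA than in TSA by 3.76 (limma adjusted p = 0.000439). It includes 102345_at, so it is no separate test of 162480_f_at.

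Fst, the activin antagonist, was read by probe set 98817_at. It gave 0.972, 0.834 and 1.19 in vehicle, 0.221, 0.237 and 0.208 in RA and 0.251, 0.206 and 0.378 in TSA. All 6 treated arrays lay below the vehicle arrays, and the RA and TSA arrays overlapped. The mean was 0.222 ± 0.0146 in RA and 0.278 ± 0.0891 in TSA (SD, n = 3), against a vehicle SD of 0.182. Fst fell by 1.94 in RA (SE 0.24, limma adjusted p = 0.00746) and by 1.70 in TSA (SE 0.24, limma adjusted p = 0.00975). Both calls held in all 9 fits without 1 array. The RA call was lost without the pair of arrays highest in 18S (0.0643), and a variance trend ended the calls in RA (0.141) and TSA (0.115). The RA and TSA groups differed by -0.24, with an interval from -0.78 to 0.30 (limma adjusted p = 0.696).

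**Figure D3:**
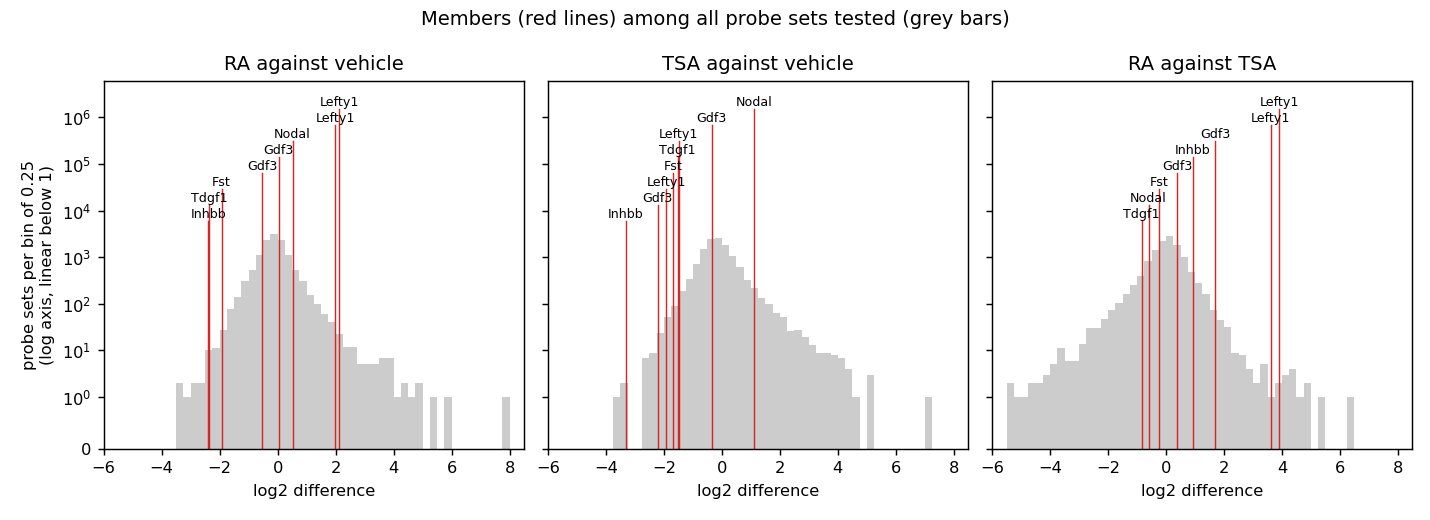
Log2 differences of the 8 probe sets (red lines) within the histogram of all 12422 probe sets (grey, log axis that is linear below 1) in each comparison. In TSA, 6 of the 8 red lines lie at or below -1.49, and in RA against TSA both Lefty1 lines lie above 3.6.

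Among the members, 6 of 8 probe sets had RA arrays that did not overlap the vehicle arrays (2 higher, 4 lower), where 17% of all probe sets did (5.93% higher and 11% lower). For TSA against vehicle the groups were apart in 6 of 8 (1 higher, 5 lower), against 26.3% (17.1% lower), and the RA and TSA arrays for 5 of 8 (3 higher, 2 lower in RA), against 27.3% (13.8% and 13.5%). Within the vehicle group, replicate 3 was the highest array for 4 probe sets and the lowest for the other 4. Lefty1 162480_f_at, Tdgf1, Inhbb and Nodal were lowest there, and Lefty1 102345_at, Fst and both Gdf3 probe sets were highest. This is also the array with the highest 18S signal, whose part in these values was not tested. How often vehicle replicate 3 was the highest or lowest vehicle array over all probe sets was not counted, so the member counts have no background beside them.

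Transcripts with the most similar values were found by the root mean square difference over the 9 arrays on the log2 scale, among 10825 probe sets with 1 symbol of other genes. For Gdf3 92476_at these were Sema5b (0.25), Fkbp9 (0.26) and Cyp51 (0.32), a sterol synthesis enzyme. For Fst they were Utf1 (0.39), a chromatin factor of undifferentiated cells, Mybl2 (0.42), a cell cycle transcription factor, and the receptor gene Lifr (0.43). Inhbb was closest to Foxd3 (0.61), a transcription factor of pluripotent cells, then Mucl2 (0.79) and Adam2 (0.88). Tdgf1 was closest to Cyp2j6 (0.44), Slc27a2 (0.56) and Stk16 (0.59). For Lefty1 102345_at the nearest were Dhrs3 (0.73), a retinaldehyde reductase, the folate receptor gene Folr1 (0.75) and Olfr155 (0.79), and for 162480_f_at they were Sox6 (0.43), Gpx7 (0.80) and Folr1 (0.80). For 102345_at, even the nearest differed from it by more than the nearest of the other called probe sets did from theirs. Dhrs3 had differences of 2.18 in RA and -0.89 in TSA.

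The rest of the pathway was given by 65 genes in 6 lists, of which 49 had a probe set with 1 symbol. Their probe sets were averaged to 1 value per gene, among 8251 genes, and adjusted over these. In RA, 2 of 49 rose, both from the list of other antagonists, and none fell, against 1.82% of all genes called (1.19% higher and 0.63% lower). In TSA, 1 rose and 3 fell, against 4.5% of all genes (2.71% higher and 1.78% lower). Between RA and TSA, 3 were higher and 1 lower in RA, against 4.99% (2.21% and 2.79%). Without vehicle replicate 2, or RA replicate 1, 2 or 3, none was called by limma in RA, and without vehicle replicate 2 or TSA replicate 2 none in TSA. Without the pair of arrays highest in 18S, 1 was called in RA and 7 in TSA. The median difference over the 49 genes was 0.026 in RA and -0.22 in TSA, beside -0.12 and -0.15 over all genes. Genes named below without a call (Inha, Inhba, Gdf11, Cfc1, Furin, Smad7, Cer1, Smad2, Smad3, Smad4, Foxh1 and Eomes) were chosen for their roles after their values were seen. Junb and Hhex, also without a call, were added for their values. At an unadjusted limma p under 0.05, the counts were 5, 11 and 16 of 49, against 13.9%, 21.6% and 19.4% of all genes.

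None of the 8 other ligands measured, among them Inha, Inhba and Gdf11, was called by limma in any comparison, and at an unadjusted p under 0.05 there were 0, 0 and 1 in RA, TSA and RA against TSA. Inhba, which encodes the beta A subunit of activin A, gave 0.877, 1.42 and 1.55 in RA and 1.06, 0.517 and 0.561 in TSA, against 0.712, 1.07 and 1.22 in vehicle. Its difference was 0.34 in RA and -0.50 in TSA, with limma adjusted p of 0.730 and 0.432. Of 7 receptors and co-receptors, the type II receptor Acvr2b fell by 0.75 in TSA (limma adjusted p = 0.0414), with TSA arrays at 0.591, 0.556 and 0.567 against 1.13, 0.860 and 1.01 in vehicle. That call held in none of the 9 fits without 1 array (0.0531 to 0.159). Centring (0.0952), quantile normalisation (0.319), the 6 arrays alone (0.102) and the fit without the pair of arrays highest in 18S (0.0657) ended it, and Acvr2b's only probe set was not called among the 12422 probe sets (0.0552). Cfc1, the other Cripto-type co-receptor, had differences of 0.86 in RA and 0.53 in TSA and did not pass (limma adjusted p = 0.364 and 0.466). Among the 4 proprotein convertases, which cut the ligand precursors, Pcsk6 fell by 0.997 in TSA (limma adjusted p = 0.0209). Its arrays were at 0.466, 0.395 and 0.582 in TSA, 0.916, 0.856 and 0.779 in RA and 1.02, 0.964 and 1.02 in vehicle. The TSA call was lost without vehicle replicate 1 (0.0532) or 2 (0.0722), or TSA replicate 1 (0.0752) or 2 (0.102), with quantile normalisation (0.111) and with the 6 arrays alone (0.0627). Pcsk6 was higher in RA than in TSA by 0.77 (limma adjusted p = 0.0491), a call that held in 1 of 9 fits, that without vehicle replicate 3, where the others gave up to 0.189. Its only probe set was not called in this comparison among the 12422 probe sets (0.0650), and the call was lost with a pseudocount of 0.1 (0.0505), centring (0.0527), quantile normalisation (0.107), the 6 arrays alone (0.0712), a variance trend (0.0550), the replicate block (0.0616) and without the pair of arrays highest in 18S (0.0771). Furin lay between 0.836 and 1.26 on all treated arrays.

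Of 13 other antagonists, Smad6 and Ski rose in RA. Smad6, an inhibitory Smad, gave 2.78, 2.65 and 2.82 in RA against 0.754, 0.878 and 1.37 in vehicle and 1.49, 1.65 and 1.93 in TSA. Its rise was 1.46 on the log2 scale (limma adjusted p = 0.0184), and was lost without vehicle replicate 2 (0.0834) or RA replicates 1 (0.0764), 2 (0.0769) or 3 (0.0586), and with the 6 arrays alone (0.0731). Ski, a corepressor that binds Smads, gave 2.56, 2.32 and 1.87 in RA, 1.12, 1.03 and 0.791 in TSA and 1.21, 0.969 and 0.821 in vehicle. It rose by 1.14 in RA (limma adjusted p = 0.0424), held in 1 of 9 fits without 1 array, that without vehicle replicate 1, with adjusted p up to 0.152 in the others. Ski's only probe set was not called in RA among the 12422 probe sets (0.0581), and quantile normalisation (0.0782), the 6 arrays alone (0.121) and the fit without the pair of arrays highest in 18S (0.0854) also ended this call. Ski was higher in RA than in TSA by 1.16 (limma adjusted p = 0.0207), a call kept in the fits without a vehicle replicate or RA replicate 3 and lost in the other 5, with adjusted p up to 0.0831, and with quantile normalisation (0.0796). Smad7, the inhibitory Smad of this branch, had differences of -0.46 in RA and -0.69 in TSA and did not pass (limma adjusted p = 0.405 and 0.118). Cer1, a secreted Nodal antagonist, ranged from 0.201 to 1.67 on the vehicle arrays alone.

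Of 8 Smads and nuclear partners, only Gtf2i, a transcription factor that can act with Smads, was called. It fell by 1.45 in TSA (limma adjusted p = 0.0159) and was higher in RA than in TSA by 1.68 (limma adjusted p = 0.00663). Its 2 probe sets lay between 0.233 and 0.424 on the TSA arrays, between 0.642 and 1.35 in vehicle and between 0.988 and 1.31 in RA. The TSA call was lost without vehicle replicate 2 (0.0577) or TSA replicate 2 (0.0674), with quantile normalisation (0.0581) and with the 6 arrays alone (0.0555), and the direct difference held in all 9 fits. Smad2, Smad3 and Smad4, which carry the signal, were not called. Foxh1, the partner through which Smads act at Nodal targets, gave 0.457, 0.355 and 0.511 in TSA against 1.35, 1.05 and 0.607 in vehicle, a difference of -1.04 that did not pass (limma adjusted p = 0.157). In RA it gave 0.888, 1.52 and 0.593. Of 9 known downstream genes, Id1, better known as a target of BMP signalling, rose by 1.26 in TSA (limma adjusted p = 0.0120), with arrays at 2.25, 2.40 and 2.77 against 0.956, 0.977 and 1.07 in vehicle. The call was lost without vehicle replicate 2 (0.0540), TSA replicate 2 (0.0615) or TSA replicate 3 (0.0505). Id1 was lower in RA than in TSA by a log2 difference of -1.53 (limma adjusted p = 0.00407), in all 9 fits without 1 array. Eomes, a T-box factor induced by Nodal, had a difference of -0.91 in TSA (limma adjusted p = 0.0782). Junb (1.31) and Hhex (0.61) of the same list had differences above 0 in TSA that did not pass (limma adjusted p = 0.140 and 0.191). At an unadjusted limma p under 0.05 there were 4 of the 9 genes in TSA, against 21.6% of all genes. Eomes was lower, and Id1, Junb and Hhex were higher.

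**Figure D4:**
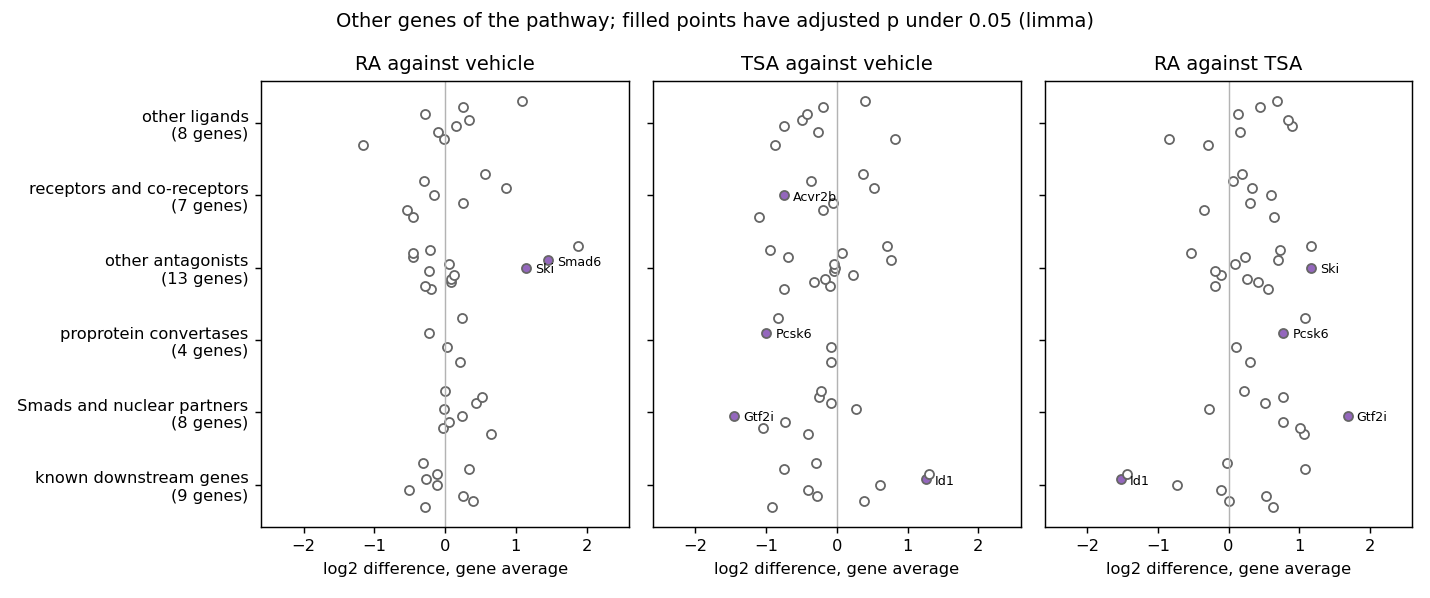
Log2 differences of the 49 other pathway genes, averaged over their probe sets and grouped by list, where filled points have a limma adjusted p under 0.05. Filled points are Smad6 and Ski in RA, Acvr2b, Pcsk6, Gtf2i and Id1 in TSA, and Ski, Pcsk6, Gtf2i and Id1 between RA and TSA.

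Markers of cell state were read beside these genes. Of 12 genes of undifferentiated embryonal carcinoma, 3 fell in RA (25%) and 1 in TSA (8.33%). Of all genes, 0.63% were called lower in RA and 1.78% in TSA, and 1.82% and 4.5% in either direction. At an unadjusted limma p under 0.05 there were 8 of 12 in RA, all lower, and 7 in TSA, 6 of them lower, against 13.9% and 21.6% of all genes. The mean of the list was -0.98, -0.86 and -0.88 on the RA arrays, -0.57, -0.56 and -0.38 on the TSA arrays and -0.14 to 0.051 on the vehicle arrays. Zfp42, a marker of undifferentiated cells, fell by 1.69 in RA (limma adjusted p = 0.00797) and had a difference of -0.14 in TSA. Utf1 fell by 1.74 in RA and by 1.34 in TSA (limma adjusted p = 0.0203 and 0.0358). Its RA call was lost without vehicle replicate 2 (0.0890), RA replicate 1 (0.0773) or RA replicate 2 (0.0907), with the 6 arrays alone (0.0585) and with a variance trend (0.105). Its TSA call was kept in 2 of 9 fits without 1 array, with adjusted p up to 0.141 in the others, and was lost with centring (0.0521), quantile normalisation (0.0786), the 6 arrays alone (0.0578), a variance trend (0.124) and without the pair of arrays highest in 18S (0.0555). In TSA, Klf4 (-1.77), Esrrb (-0.93), Dppa5a (-0.88) and Fgf4 (-0.84) had differences below 0 that did not pass (limma adjusted p = 0.0581 to 0.0778), and Dppa3 one of 2.01 (0.209). Sox2 (-0.059), Sall4 (0.028) and Tcl1 (-0.27) had smaller differences in TSA that did not pass (limma adjusted p = 0.484 to 0.954). Tcl1 was also called in RA, where it fell by 1.53 (limma adjusted p = 0.00816). Utf1 and the genes listed here from Klf4 to Tcl1 were named after their values were seen. The core factors Pou5f1 (-0.92 and -1.02) and Nanog (-0.66 and -0.39) did not pass in RA or TSA, with limma adjusted p of 0.0988 to 0.318. Of 11 genes of primitive and visceral endoderm, 2 rose in RA (18.2%) and none in TSA, where 1 had an unadjusted limma p under 0.05. Of all genes, 1.19% were called higher in RA and 2.71% in TSA. Gata6, an endoderm factor, rose by 1.93 in RA as the average of its 3 probe sets (limma adjusted p = 0.0204). This call was lost without vehicle replicate 1 (0.0559) or 2 (0.0817), or RA replicate 1 (0.0796) or 2 (0.0946). The probe sets differed, with RA means of 14.0, 3.20 and 1.21 times vehicle. Among the 12422 probe sets only the first was called (limma adjusted p = 0.00062, 0.101 and 0.817). The RA arrays of the last (1.20 to 1.22) lay within its vehicle range (0.494 to 1.41). Gata4 had a difference of 0.12 in RA, whose sign turned without vehicle replicate 1. The mean of that list was 0.28, 0.36 and 0.33 in RA, -0.21, -0.39 and 0.0017 in TSA and -0.56 to 0.43 in vehicle. Parietal endoderm genes had 2 rises of 11 in RA (18.2%, against 1.19% of all genes) and 3 in TSA (27.3%, against 2.71%). Their list means ran from 0.52 to 0.58 in RA, 0.45 to 0.88 in TSA and -0.26 to 0.21 in vehicle. Fibroblast and feeder genes had no call of 12 in RA, where 2 had an unadjusted limma p under 0.05, and 2 rises in TSA (16.7%, against 2.71%). Their list means ran from -0.69 to 0.60 over the vehicle arrays, -0.43 to -0.053 in RA and 0.14 to 0.56 in TSA. As ratios carry no brightness, the presence of a marker cannot be read from them. The part of these markers in the changes of Tdgf1, Inhbb, Fst, Gdf3 and Lefty1 was not tested.

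**Figure D5:**
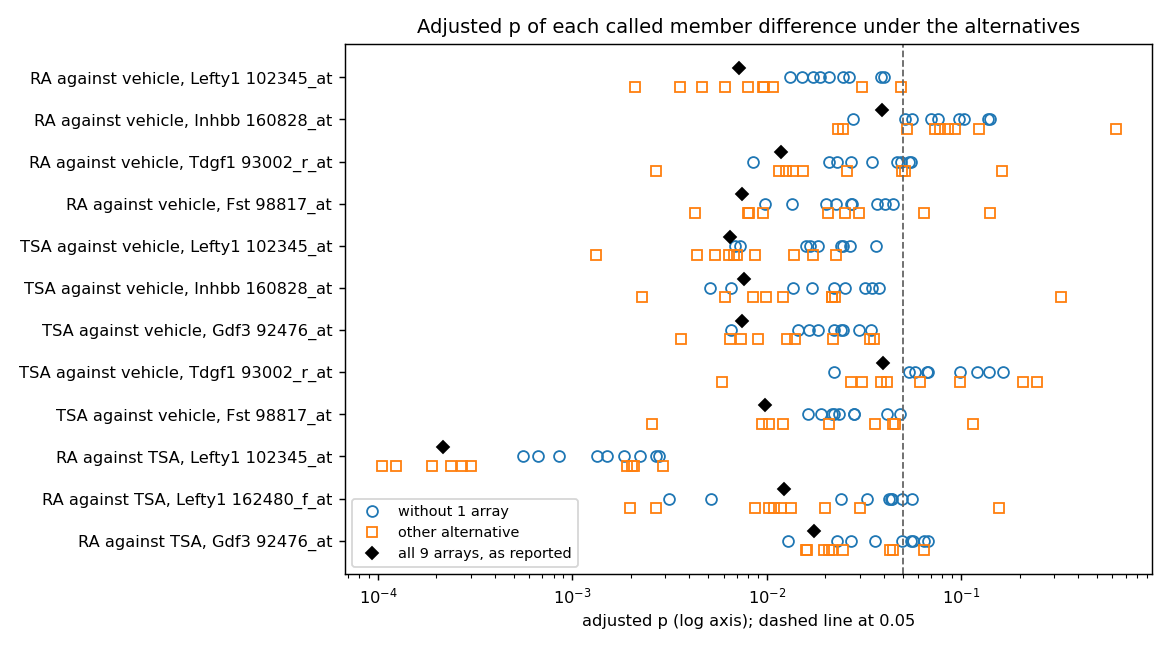
Adjusted p (log axis) of the 12 called differences of member probe sets, as reported (diamonds), in the 9 fits that each leave out 1 array (circles) and in the other alternatives (squares), with the threshold of 0.05 as a dashed line. All marks of Lefty1 102345_at lie left of the line in the 3 comparisons, while most circles of Inhbb in RA and of Tdgf1 in TSA lie right of it.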

How the data were processed

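Total RNA from F9 cells was hybridised to Affymetrix arrays at a core facility and the raw data entered into GeneSpring, per the labels' protocols. The values the authors deposited are linear ratios: in every probe set the 3 vehicle arrays average 1, to within 1.9e-07. How these ratios were made is not given in the sources used here, and spot brightness and depth are unknown. The number of arrays, 3 a group, limits the precision.

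The 66 control probe sets were left out, and 12422 were tested with limma 3.58.1 (R 4.3.3) on log2(ratio + 0.05), in 1 fit of the 3 groups with 6 residual degrees of freedom, Benjamini-Hochberg adjustment over all probe sets and a threshold of 0.05. The script was tested on simulated data. Symbols came from the platform annotation, updated by Entrez ID through RefSeq: 10833 probe sets had 1 symbol, 396 several and 1193 none. Pathway and marker lists were tested on gene averages over 8251 genes.

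The members and lists were chosen with earlier results of these data known. All member probe sets, pathway genes called in any comparison, the 3 nearest patterns of each called member, and Pou5f1, Nanog, Zfp42, Gata6 and Gata4 were named by rule. Alternatives covered the pseudocount, centring, quantile normalisation, a filter on the lowest 30%, the arrays in the fit, a variance trend, replicate number as a block, array weights, the 18S signal and each array left out.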

Additional observations from a re-analysis of the deposited data

How the results depend on the processing

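The 3 calls of Lefty1 102345_at and the TSA call of Gdf3 92476_at kept direction and call in every fit that could be made, and the losses of the other calls of members and of named pathway genes stand beside them in the report. Counts are of calls in RA against vehicle, TSA against vehicle and RA against TSA. Reported counts were 169, 432 and 486 for all probe sets, 4, 5 and 3 for members, and 2, 4 and 4 for the 49 other pathway genes. With 1 array left out they ran from 54 to 209, 107 to 494 and 167 to 624 for all probe sets, 2 to 4, 4 to 6 and 1 to 3 for members, and 0 to 2, 0 to 5 and 2 to 5 for pathway genes. The lowest counts over all probe sets came without RA replicate 1 in the first comparison and without TSA replicate 2 in the other two. Quantile normalisation gave 87, 108 and 152 for all probe sets, 2 members in RA, and 1, 1 and 2 pathway genes. The 30% filter, which acts on the mean ratio, took out 4 of the 8 member probe sets (those of Inhbb, Tdgf1, Fst and Gdf3 92476_at), leaving 1 member call in RA and 1 in TSA, and 1 and 2 pathway genes in TSA and RA against TSA. The 6 compared arrays alone gave 61 and 168 probe sets in RA and TSA, and 0 and 1 pathway genes. A variance trend gave 111 probe sets in RA and 1 and 2 members in RA and TSA. Array weights estimated gene by gene, chosen after seeing the data because the planned weights did not converge and were not run further, gave 549, 1771 and 890 probe sets and 9 and 7 pathway genes in TSA and RA against TSA. Without the pair of arrays highest in 18S there were 98 probe sets, 2 members and 1 pathway gene in RA, and 7 pathway genes in TSA. Centring kept each count in either direction within 1.5 times, but moved the calls lower in TSA from 158 to 82 and those higher from 274 to 379. In RA it moved lower calls from 53 to 37 and higher ones from 116 to 148. The replicate block gave 141, 438 and 455 probe sets and 3, 5 and 3 members. Correlations of the arrays' deviations from their group means ran from -0.032 to 0.29 for same-numbered arrays. They ran from -0.30 to 0.17 for differently numbered ones. Same-numbered pairs ran from 0.19 to 0.29 for replicate 3, from 0.016 to 0.25 for replicate 1 and from -0.032 to 0.032 for replicate 2. The labels do not say what a number marks, so the main fit does not pair the arrays. The part of a shared replicate effect was not tested beyond the block. Of uncalled differences, Gdf3 161144_r_at in RA became -0.021 with weights and ran from -0.34 to 0.37 with 1 array left out. Zfp42 in TSA became 0.061 after centring. Gata4 in TSA became 0.14 after centring, 0.029 after quantile normalisation and 0.17 without the pair highest in 18S, with a range of -0.44 to 0.17 with 1 array left out, and Gata4 in RA became -0.045 with weights, with a range of -0.27 to 0.35. The cause was not tested.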
